A study of Rattus norvegicus with 48 samples.

Results

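The genes of glycolysis were followed across all treatments of rat primary cortical cultures. The set was a list of 10 symbols (Slc2a1, Hk1, Hk2, Pfkp, Pfkfb3, Aldoa, Gapdh, Pgk1, Pkm and Ldha), looked up by symbol in a table of 30211 genes. 9 of the 10 had a row, and Gapdh was not analysed here. The rule of lookup uses no measured value, but the list was chosen with earlier results of these data known. RNA-seq was performed on 48 libraries in 16 groups of 3. Mixed cultures were prepared from the brains of Sprague-Dawley rat fetuses of 18 days, grown for 21 days and given recombinant HIV-1 Tat protein (6 ng/mL for 48 h), cocaine (25 µM for 24 h), 4-octyl itaconate (4OI, 250 µM for 48 h), or combinations of these. The groups were Control, Cocaine, Tat, Tat-Cocaine, 4OI, Tat-4OI and Tat-Cocaine-4OI, with n = 3 in each. For each of Amlexanox (25 µM), Tazemetostat (3 µM) and Senicapoc (1 µM) there were 3 more groups (the compound by itself, added to Tat, and added to Tat with cocaine), also with n = 3. All cultures, Control included, were of the same kind and age. Values are CPM, the reads of a gene scaled by the authors to a common library size with TMM factors, and are thus levels relative to all RNA of the library. Each of these compounds was sequenced at 1 dose.

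Glycolysis converts glucose to pyruvate. Slc2a1 (GLUT1) carries glucose into the cell, the hexokinases Hk1 and Hk2 trap it as glucose 6-phosphate, the phosphofructokinase Pfkp makes the committed step, and Pfkfb3 makes fructose 2,6-bisphosphate, an activator of that step. Aldoa splits the sugar, Pgk1 and Pkm make ATP, and Ldha interconverts pyruvate and lactate. In brain, astrocytes and activated microglia are known for high glycolysis and neurons for a greater reliance on oxidative metabolism. Itaconate is made by the enzyme Acod1 of activated myeloid cells, and 4OI is an ester of it that enters cells.

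Depth was 17.5 to 29.1 M reads on genes per library (median 22.4 M), and the 9 genes had between 288 (Hk2) and 36839 (Aldoa) reads in a library. A read total with a remainder of 0.5, as arises when 1 read is divided between overlapping genes, was found for Pkm in 26 of 48 libraries, Hk1 in 15, Aldoa in 10, Pgk1 in 8 and Ldha in 2, and for the other 4 genes in 0. Aldoa, Pgk1, Pkm and Ldha belong to gene families with many processed pseudogenes, and the authors counted only reads with 1 position in the genome, so reads that such copies share are missing and the levels of these 4 genes are uncertain to that extent. The labels give neuron as the cell type, and markers of neurons (Snap25, mean 413 CPM in Control), astrocytes (Gfap, 4416 CPM) and microglia (C1qa, 586 CPM) were all present. Endothelial markers summed to 1.12 to 8.40 CPM over the 48 libraries, and Cldn5 did not exceed 0.1003 CPM in any library. The library Cocaine replicate 3 stood apart with a summed level of 25922 CPM for 10 oligodendrocyte markers, against 2129 and 1704 CPM in the other Cocaine libraries. Fewer cells of a type and less RNA per cell cannot be told apart in these bulk libraries.

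The promoters of 3 genes are shown because the 3 behaved differently: Slc2a1 rose with 4OI, Pfkfb3 rose with Tat, and Ldha was called with neither. The 250 bases before the start of each gene were taken from RefSeq (build GRCr8, 5′ to 3′ on the strand of the gene), and capitals mark the letters ACGTG on either strand, the core recognised by hypoxia-inducible factors and, as CACGTG, by E-box factors.
Slc2a1 (chr5:138002272-138002521, plus strand): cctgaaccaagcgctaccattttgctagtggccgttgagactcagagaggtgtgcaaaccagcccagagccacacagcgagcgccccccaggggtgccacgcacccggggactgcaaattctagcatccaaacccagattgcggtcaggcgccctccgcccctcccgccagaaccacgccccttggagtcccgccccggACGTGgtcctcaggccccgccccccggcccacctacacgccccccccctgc
Pfkfb3 (chr17:71944683-71944932, plus strand): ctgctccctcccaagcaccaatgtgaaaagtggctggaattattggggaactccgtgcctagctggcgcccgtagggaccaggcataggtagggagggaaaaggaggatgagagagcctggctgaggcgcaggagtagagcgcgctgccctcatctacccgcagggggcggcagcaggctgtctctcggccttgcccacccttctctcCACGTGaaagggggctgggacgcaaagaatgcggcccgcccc
Ldha (chr1:106507842-106508091, plus strand): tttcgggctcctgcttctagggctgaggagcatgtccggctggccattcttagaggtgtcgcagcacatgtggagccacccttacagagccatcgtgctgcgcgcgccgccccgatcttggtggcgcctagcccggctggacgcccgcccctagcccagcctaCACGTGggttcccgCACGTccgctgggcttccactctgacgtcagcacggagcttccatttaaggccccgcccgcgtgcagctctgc
Slc2a1 held 1 such match, whose first base lay 51 bases before the start. Pfkfb3 held the palindrome CACGTG, which counts as overlapping matches on both strands, 42 bases before the start. Ldha held the same palindrome at 87 bases and another single match at 73. The 8 analysed genes with a promoter entry (Pgk1 had none) had 11 entries, of which 5, each of a different gene, held ACGTG. Counted by entry in the same way, 16.6% of all 33469 promoters of the same length held it. The letters TGACNNNGC, the core of the antioxidant response element bound by Nrf2, were in 0 of the 11 entries on either strand and in 10.1% of all promoters. The matches are a description of these letters only.

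Tests were made with limma across 15890 genes, all 9 glycolysis genes among them, and a gene was called at a false discovery rate (FDR, Benjamini-Hochberg) under 0.05 over all genes tested. Tat changed 3 of the 9 genes against Control (2 higher, 1 lower), where 21.3% of all genes tested were called (14.6% higher, 6.7% lower). Tat-Cocaine changed 3 (1 higher, 2 lower) beside 14.9% of all genes (8.63% higher, 6.3% lower), and Tat-4OI differed from 4OI in 2, both higher, beside 5.18% (3.08% higher). 4OI changed 1 of 9 against Control, which was higher, beside 3.15% of all genes tested (2.47% higher). Tat-4OI differed from Tat in 2 genes, both higher, beside 15.6% (6.1% higher), and Tat-Cocaine-4OI from Tat-Cocaine in 2, both higher, beside 7.36% (4.07% higher). P-values measure the spread between these libraries, since nothing says that triplicates came from separate animals. The libraries of the compared groups did not overlap for 3 of the 9 genes with Tat (beside 33% of all genes tested), 1 with Cocaine (5.76%), 3 with Tat-Cocaine (28.4%), 2 with 4OI (16.9%), 3 in Tat-4OI against Tat (34.9%), 5 in Tat-Cocaine-4OI against Tat-Cocaine (20.6%) and 4 in Tat-4OI against 4OI (29.5%). Several of these comparisons share the Control, Tat or 4OI libraries. The median log2 fold change of the 9 genes was -0.06 with Tat and 0.07 with 4OI, beside a median over all genes tested of 0.01 and 0.00. Aldoa, Pgk1 and Ldha were called in 0 of 18 comparisons.

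**Figure D1:**
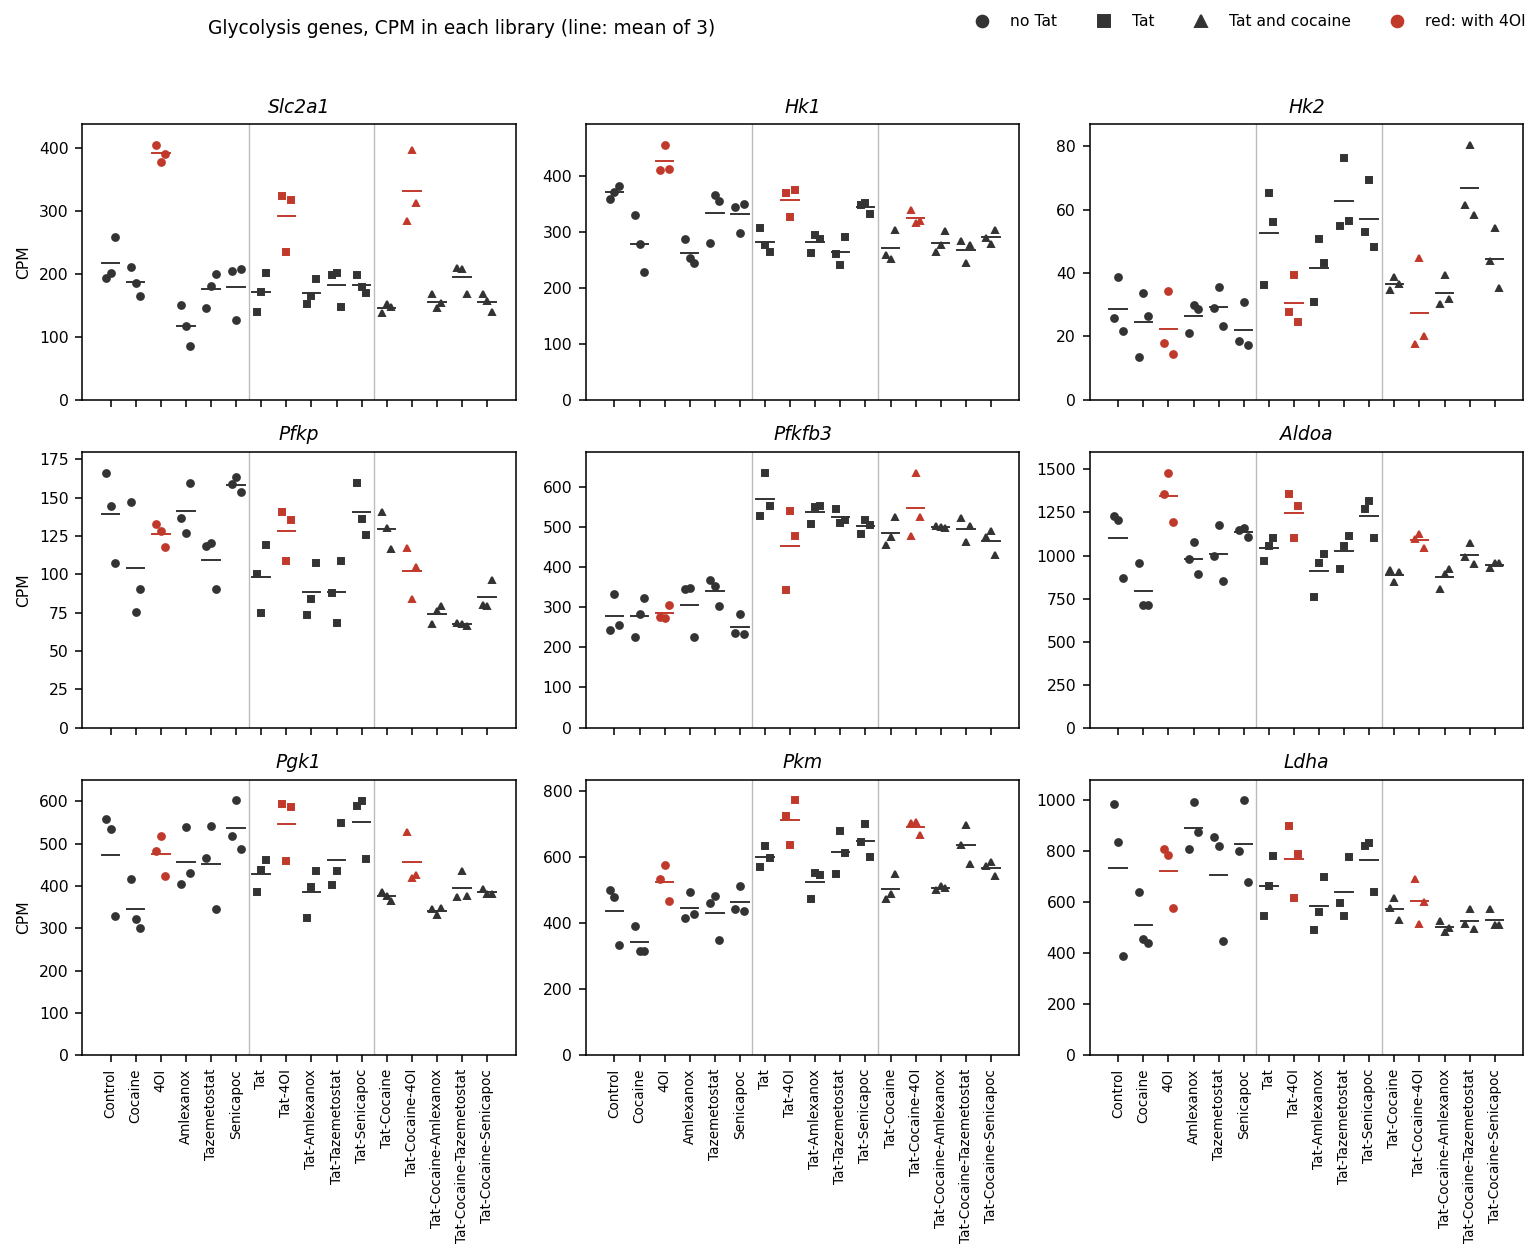
CPM (linear axes from 0) of the 9 glycolysis genes in each of the 48 libraries, by group; points are libraries, horizontal lines are means of 3, and red marks groups with 4OI. Slc2a1 was at 234 CPM or more in the 9 libraries with 4OI, and Pfkfb3 was at 344 CPM or more in the 30 libraries with Tat and at 368 CPM or less in the 18 without.

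Slc2a1, the glucose transporter at the head of the pathway, rose with 4OI in all 3 settings in which it was tested. Control libraries had 193, 201 and 258 CPM, and 4OI libraries had 404, 378 and 389.7 CPM. With Tat the values were 139.8, 171 and 201 CPM, and with Tat-4OI they were 323, 234 and 317 CPM. With Tat-Cocaine they were 138, 153 and 148 CPM, and with Tat-Cocaine-4OI 283, 396 and 312 CPM. In each setting the lowest 4OI library lay above the highest library without it; such separation was seen for 16.9%, 34.9% and 20.6% of all genes tested. The log2 fold change was 0.86 ± 0.18 (SE, FDR = 0.00379) against Control, 0.77 ± 0.18 (FDR = 0.00377) against Tat and 1.16 ± 0.18 (FDR = 4.89e-05) against Tat-Cocaine, by limma with n = 3 in each group. The call stood with each library left out in turn and under each other setting tried, with log2 fold changes of 0.78 to 0.99, 0.63 to 0.92 and 1.02 to 1.26. The effect of 4OI beside Tat was not shown to differ from its effect alone (difference -0.09, 95% interval -0.61 to 0.44), nor was that beside Tat-Cocaine (0.30, -0.22 to 0.83).

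Without 4OI, Slc2a1 was lower with Tat-Cocaine than in Control (log2 fold change -0.56 ± 0.18, FDR = 0.0343), with no overlap between the groups. This call was lost without Control replicate 3 (FDR = 0.174) and without Tat-Cocaine replicate 1, 2 or 3 (0.0949, 0.0633 and 0.078), with no minimum level (0.0505) and with the groups fitted alone (0.0632). Tat alone gave -0.35 (95% interval -0.72 to 0.02, FDR = 0.167), which did not pass. Over the series Slc2a1 ranged from 85.6 to 404 CPM, with group means from 117 ± 32.4 (SD, n = 3) with Amlexanox to 391 ± 13.3 with 4OI. The 3 groups with 4OI had the highest means, and the next in order was Control (217 ± 35.5). Tat-4OI (291 ± 49.4) and Tat-Cocaine-4OI (331 ± 58.4) overlapped in their libraries. GLUT1 is abundant in astrocytes and in the endothelium. Astrocyte markers summed to 9564 to 11753 CPM in Control and 9772 to 11749.9 CPM in 4OI, 6610.0 to 8966 in Tat and 8717 to 10327 in Tat-4OI, and 6655 to 8510.4 in Tat-Cocaine and 8746 to 13231 in Tat-Cocaine-4OI. Of 10 astrocyte markers, 1, 1 and 4 were higher with 4OI in the 3 settings and 0 lower, beside 2.47%, 6.1% and 4.07% of all genes higher. Over the 48 libraries Slc2a1 had r = 0.37 with the astrocyte sum and -0.45 with the summed microglial markers, as a description. Mean microglial sums were 1617 CPM in Control and 1195 in 4OI, and 2130 in Tat and 1093 in Tat-4OI. They were 1672 CPM in Tat-Cocaine and 862 in Tat-Cocaine-4OI. The part of astrocyte and microglial markers in the Slc2a1 values was not tested.

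Of the hexokinases, Hk1 fell with Tat and with Tat-Cocaine. Hk2 did not pass in either comparison in the main fit, which had no replicate term. Hk1, the constitutive form of brain, had 359, 371 and 383 CPM in Control and 307, 278 and 264 CPM in Tat, without overlap. Its log2 fold change with Tat was -0.39 ± 0.10 (FDR = 0.00608), and Tat-Cocaine gave -0.45 ± 0.10 (FDR = 0.00263). Both calls were lost when the compared groups were fitted alone (FDR = 0.0528 and 0.0626). 4OI libraries had 411, 456 and 413 CPM, all above Control, with a log2 fold change of 0.20 ± 0.10 that did not pass (FDR = 0.43). Tat-4OI libraries had 369.9, 326 and 375 CPM, higher than Tat by 0.34 ± 0.10 (FDR = 0.0257). This last call was lost without Tat replicate 2 or 3 (FDR = 0.1 and 0.0777) and without Tat-4OI replicate 1 or 3 (0.108 and 0.108). As a description, Hk1 had r = 0.55 with the astrocyte sum, 0.52 with the neuronal sum and -0.51 with the microglial sum over 48 libraries. Mean astrocyte sums were 10469 CPM in Control, 7496 in Tat and 7360 in Tat-Cocaine. Mean neuronal sums were 4171, 2876 and 3302 CPM in the same groups. The part of these markers in the Hk1 values was not tested.

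Hk2, the inducible hexokinase, was the lowest of the 9 genes in reads. Its values were 25.8, 38.7 and 21.8 CPM in Control and 36.1, 65.2 and 56.2 CPM in Tat. The groups overlapped by Control replicate 2, and the log2 fold change of 0.86 ± 0.32 (95% interval 0.20 to 1.51) did not pass (FDR = 0.0527). The same fit passed without Tat replicate 1 (FDR = 0.0278) or without Control replicate 2 (0.0269). Replicate 2 was the highest library for Hk2 in every group, and Tat exceeded Control at each replicate number. With a term for the replicate number in the fit, the rise with Tat passed (FDR = 0.00119). With Tat-4OI the values were 27.6, 39.3 and 24.6 CPM, a log2 fold change against Tat of -0.76 ± 0.32 (FDR = 0.0986). Tat-4OI was below Tat at each replicate number, and with the replicate term this fall passed (FDR = 0.00506). Libraries with Tat had 17.7 to 80.5 CPM (median 43.5, n = 30) and libraries without it 13.6 to 38.7 CPM (median 26.2, n = 18). Within a library, the ratio of Hk2 to Hk1 was 0.0777 ± 0.0241 (SD, n = 3) in Control and 0.188 ± 0.0622 in Tat. The difference was 1.26 on the log2 scale, with no overlap between the groups and p = 0.1 by an exact permutation test (two-sided), the smallest p that 3 against 3 allows. The ratio was 0.0513 ± 0.0211 with 4OI (p = 0.3 against Control) and 0.0869 ± 0.0294 with Tat-4OI (p = 0.2 against Tat, exact permutation tests). None of these permutation tests paired libraries by replicate number.

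Hk2 followed the microglial markers. Over the 48 libraries its Pearson correlation with their summed level was 0.81 on the log2 scale, and the 3 genes most like it were Trpm2 (r = 0.94), the lysosomal protease Ctsz (0.94) and the Fc receptor Fcgr3a (0.94). These correlations are descriptions, since libraries share groups, scaling and culture makeup. The 10 microglial markers summed to 1289 to 2227 CPM in Control, 1613 to 2869 in Tat and 711 to 1551 in Tat-4OI. With Tat, 3 of the 10 rose and 1 fell, and in Tat-4OI against Tat 0 rose and 2 fell. Their part in the Hk2 values was not tested.

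**Figure D2:**
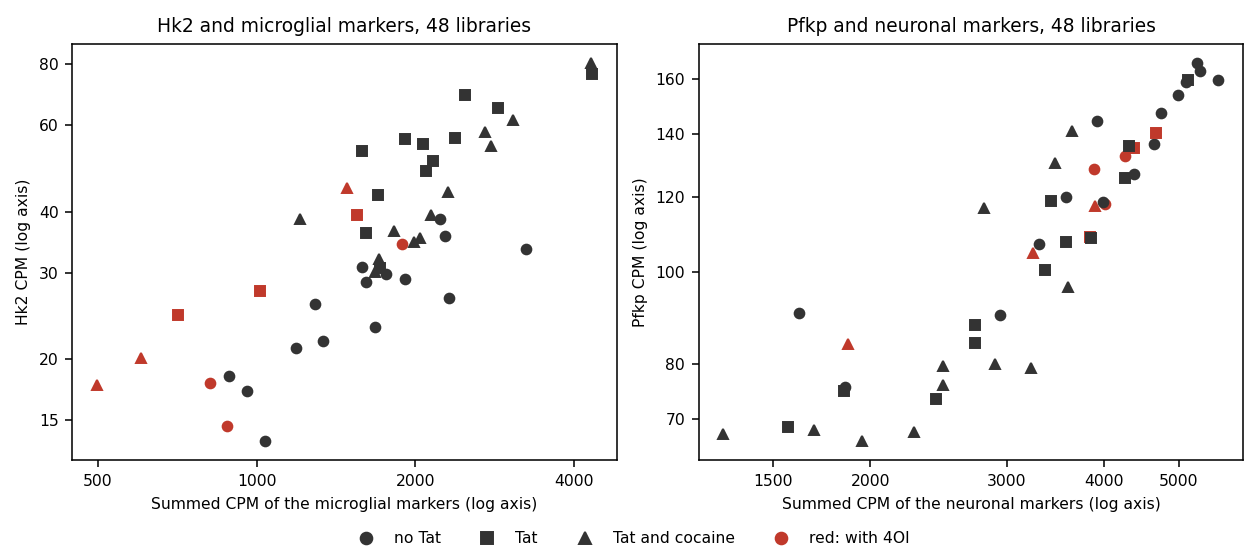
Left, Hk2 CPM against the summed CPM of 10 microglial markers; right, Pfkp CPM against the summed CPM of 12 neuronal markers, both on log axes with 1 point for each of 48 libraries. Points follow a rising line in both (r = 0.81 and 0.90), and red 4OI libraries lie mostly at low microglial sums.

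Pfkp, the platelet-type phosphofructokinase subunit, followed the neuronal markers instead (r = 0.90 over 48 libraries). The genes most like it were Syt7, a synaptotagmin (r = 0.95), Rab15 (0.95) and Bcat1 (0.95). Control libraries had 166, 144 and 107 CPM and Tat libraries 100.4, 74.9 and 119 CPM, which overlapped. The log2 fold change of -0.51 ± 0.19 did not pass (FDR = 0.0532). It passed without Tat replicate 3 (FDR = 0.0199), without Control replicate 3 (0.0181), and under median ratio scaling (0.038) or quantile normalization (0.0375). Tat-4OI libraries had 140.4, 109 and 135 CPM, a log2 fold change of 0.40 ± 0.19 against Tat (FDR = 0.142). Neuronal markers summed to 3305 to 5284 CPM in Control, 1852 to 3416 in Tat and 3841 to 4677 in Tat-4OI, and 0 of 12 were called in either comparison. Their part in the Pfkp values was not tested.

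Pfkfb3 was the gene that Tat raised most among the 9. Its values were 243, 334 and 255 CPM in Control and 527, 635 and 553 CPM in Tat, a 2.07-fold difference on the scale of log2(CPM + 0.5). The log2 fold change was 1.05 ± 0.15 (FDR = 1.94e-06) with Tat and 0.82 ± 0.15 (FDR = 0.000148) with Tat-Cocaine, whose libraries had 455, 475 and 526 CPM. Both calls held with each library left out in turn. Over all groups, the 30 libraries with Tat had 344 to 637 CPM and the 18 without had 226 to 368 CPM, so the sets overlapped only because Tat-4OI replicate 1 lay below replicates 1 and 2 of Amlexanox and of Tazemetostat. Of the marker lists, that of fibroblasts and pericytes had the highest r with Pfkfb3 among the 6 (0.56 over 48 libraries, as a description). Its 5 genes in the table summed to 87.5 to 255 CPM in Control, 156 to 345 in Tat and 221 to 331 in Tat-Cocaine, and 0 of 5 were called with Tat and 1, higher, with Tat-Cocaine. Their part in the Pfkfb3 values was not tested.

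With 4OI alone Pfkfb3 was at 276, 274 and 307 CPM, a log2 fold change of 0.06 (95% interval -0.24 to 0.35). With Tat-4OI the values were 344, 539.6 and 478 CPM, above 4OI (log2 fold change 0.64 ± 0.15, FDR = 0.00639). This call was lost without Tat-4OI replicate 2 (FDR = 0.102). Against Tat the difference was -0.35 ± 0.15 and did not pass (FDR = 0.0923); it passed without Tat-4OI replicate 2 (0.0297) and under quantile normalization (0.0316). The interaction of Tat and 4OI was -0.41 (95% interval -0.83 to 0.01, FDR = 0.427). With Tat-Cocaine-4OI the values were 478, 637 and 526 CPM, a log2 fold change of 0.16 against Tat-Cocaine (-0.13 to 0.46). The genes most like Pfkfb3 were Bicc1 (r = 0.94), the oncostatin M receptor Osmr (0.94) and Fgfrl1 (0.93), over 48 libraries.

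**Figure D3:**
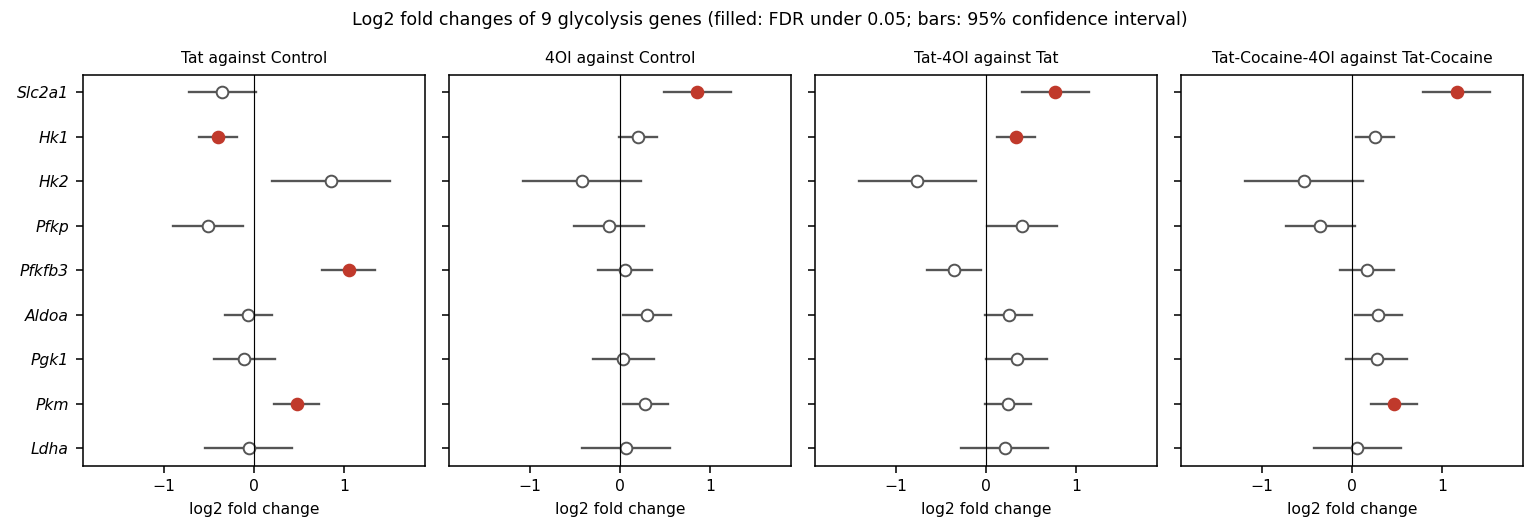
Log2 fold changes of the 9 genes (limma) in 4 comparisons; bars are 95% confidence intervals and filled points have an FDR under 0.05. Slc2a1 is filled and to the right in all 3 comparisons of 4OI, whereas Pfkfb3 and Pkm are to the right and Hk1 to the left with Tat.

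Pkm, pyruvate kinase of the M type, rose with Tat, and its highest group means were those of Tat-4OI and Tat-Cocaine-4OI. The values were 499, 479.8 and 332 CPM in Control, 569, 631 and 596 CPM in Tat, 532, 575 and 467 CPM in 4OI and 724, 636 and 771 CPM in Tat-4OI. All Tat libraries lay above all Control libraries, and all Tat-4OI libraries above all Tat libraries. The log2 fold change with Tat was 0.48 ± 0.12 (FDR = 0.00533), a call lost without Control replicate 3 (FDR = 0.0873), the lowest Control library. 4OI gave 0.28 ± 0.12 against Control (FDR = 0.298) and 0.24 ± 0.12 against Tat (FDR = 0.174), and neither passed. With Tat-Cocaine the values were 471, 486 and 547 CPM, and with Tat-Cocaine-4OI they were 701, 706 and 666 CPM, higher by 0.46 ± 0.12 (FDR = 0.0171). This call was lost without Tat-Cocaine replicate 1 (FDR = 0.0823) or 2 (0.0653). Tat-4OI exceeded 4OI by 0.44 ± 0.12 (FDR = 0.0322), lost without 4OI replicate 1 or 3 (0.0937 and 0.196) and without Tat-4OI replicate 1 or 3 (0.0748 and 0.144). The table has 1 value per gene, so the M1 and M2 forms of Pkm were not separated. The genes most like Pkm were Cers6 (r = 0.87), Kcnn3 (0.86) and Cables2 (0.83).

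Aldoa, Pgk1 and Ldha, which like Pkm act after the phosphofructokinase step, were called in no comparison. Ldha had 982, 834 and 387 CPM in Control, 546, 661 and 781 CPM in Tat and 807, 783 and 577 CPM in 4OI, and these groups overlapped. Its log2 fold change was -0.06 with Tat (95% interval -0.54 to 0.43) and 0.07 with 4OI (-0.42 to 0.55). Control replicate 3 was the lowest of all 48 libraries for Ldha and the lowest Control library for Aldoa, Pgk1 and Pkm. Aldoa had 1228, 1206 and 868 CPM in Control and 1356, 1482 and 1198 CPM in 4OI, a log2 fold change of 0.30 ± 0.13 (FDR = 0.276). Pgk1 had 557, 533 and 329.7 CPM in Control, 387, 439 and 462 CPM in Tat and 592, 458 and 586 CPM in Tat-4OI, which gave 0.34 ± 0.17 between the latter groups (FDR = 0.157). Cocaine had the lowest group mean of the series for Aldoa (793 ± 142 CPM, SD, n = 3), and Tat-Cocaine-Amlexanox had that for Pgk1 (342 ± 9.26 CPM).

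These 3 genes varied together. Over the 48 libraries the correlation was 0.88 between Aldoa and Pgk1, 0.88 between Pgk1 and Ldha and 0.70 between Aldoa and Ldha, whereas Pfkfb3 and Ldha had -0.29. This was not particular to them, since Pfkp had 0.74 with Ldha and 0.66 with Pgk1, and Hk1 had 0.67 with Aldoa. The genes outside the list most like them were Gpi for Aldoa (r = 0.92) and Pgam1, the phosphoglycerate mutase of the next step, for Pgk1 (0.92) and Ldha (0.93). The others were Pdxk (0.85) and LOC108351137 (0.91) for Aldoa, and RGD1562690 (0.96 with Ldha, 0.88 with Pgk1) and RGD1563601 (0.92 and 0.89), loci without an assigned gene name, and whether they share reads with these genes was not tested. For Slc2a1 the most alike were Mthfd1 (r = 0.91), Bag3 (0.88) and Aox1 (0.88), and for Hk1 Pcdhga3 (0.84) was among the 3 most alike. Ldha correlated with the neuronal marker sum at 0.70, and Pgk1 at 0.62. The ratio of Ldha to Ldhb, the other lactate dehydrogenase subunit, was 2.08 ± 0.922 (SD, n = 3) in Control, 2.53 ± 0.493 in Tat, 1.78 ± 0.351 in 4OI and 2.43 ± 0.198 in Tat-4OI. Exact permutation tests (two-sided, smallest possible p 0.1) gave p = 0.5 for Tat against Control, p = 0.9 for 4OI against Control and p = 0.9 for Tat-4OI against Tat.

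Cocaine alone changed 0 of the 9 genes at the threshold of limma, beside 0.201% of all genes tested, although all 9 log2 fold changes were below 0 (median -0.43) and 5 of 9 had an unadjusted p under 0.05, as had 1996 of the 15890 genes. Hk1 had 330.5, 278 and 228 CPM with Cocaine, all below Control (log2 fold change -0.43 ± 0.10, FDR = 0.0683). Pfkfb3 had 226, 283 and 324 CPM and a log2 fold change of -0.000449 (95% interval -0.30 to 0.30), which was above 0 under median ratio scaling. The count depended on 1 library, since without Cocaine replicate 1 Hk1, Pfkp, Aldoa, Pgk1 and Pkm were called lower (5 genes, FDR 0.00108 to 0.0379), together with 1724 genes in all. Without Control replicate 3, 1 gene (Aldoa, FDR = 0.0382) was called. Neuronal markers summed to 4747 CPM in Cocaine replicate 1 and to 1857 and 1620 CPM in replicates 2 and 3, against 3305 to 5284 CPM in Control. Without replicate 3, which had the high oligodendrocyte markers, 0 of the 9 were called. The part of these markers in the result was not tested.

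The other compounds were sequenced at doses of their own, so their values stand side by side and were not compared with each other. Libraries of the compared groups did not overlap for 2, 1 and 3 of the 9 genes with Amlexanox alone, beside Tat and beside Tat-Cocaine (20.6, 18 and 22.1% of all genes), for 0, 0 and 5 with Tazemetostat (8.91, 8.6 and 47.7%), and for 1, 4 and 2 with Senicapoc (13.3, 25.7 and 19.4%). Amlexanox (25 µM) lowered 2 of 9 genes against Control, beside 11.4% of all genes tested (7.6% lower). Slc2a1 had 150.4, 116 and 85.6 CPM (log2 fold change -0.91 ± 0.18, FDR = 0.00164), a call lost without Amlexanox replicate 3 (FDR = 0.0624), and Hk1 had 288, 253 and 245 CPM (-0.50 ± 0.10, FDR = 0.00226). Fitted alone, these groups gave an FDR of 0.228 for Slc2a1 and 0.228 for Hk1. Astrocyte markers summed to 13045, 8465 and 5487 CPM in these 3 libraries, the same order as Slc2a1, and 5 of 10 were lower than in Control. The sum of Amlexanox replicate 1 lay above those of Control (9564 to 11753 CPM), while its Slc2a1 lay below Control (193 to 258 CPM). The part of these markers in the result was not tested. Beside Tat, Amlexanox changed 0 of 9 by limma (0.837% of all genes, 1988 with an unadjusted p under 0.05, 0 of them among the 9), and Slc2a1 had 152, 165 and 191 CPM. Beside Tat-Cocaine it lowered Pfkp, 1 of 9 (0.925% of all genes, 0.579% lower), to 67.7, 75.9 and 79.2 CPM (-0.80 ± 0.19, FDR = 0.0371). That call was lost without Tat-Cocaine replicate 1 or 2 (FDR = 0.238 and 0.222) and without Tat-Cocaine-Amlexanox replicate 1, 2 or 3 (0.233, 0.0595 and 0.102).

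Tazemetostat (3 µM) beside Tat-Cocaine changed 3 of 9 genes, beside 28.7% of all genes tested (15.2% higher, 13.4% lower). Hk2 rose to 61.4, 80.5 and 58.3 CPM (0.84 ± 0.32, FDR = 0.0462), but the call was lost on leaving out any 1 of the 6 libraries (FDR 0.0543 to 0.182). Pfkp fell to 68.1, 67.4 and 66.2 CPM (-0.93 ± 0.19, FDR = 0.00435), and was still called with each library left out in turn. Pkm was at 635, 696 and 578 CPM (0.34 ± 0.12, FDR = 0.038), lost without Tat-Cocaine replicate 1 or 2 (FDR = 0.152 and 0.115) and without Tat-Cocaine-Tazemetostat replicate 1 or 2 (0.0774 and 0.176). In the same comparison 10 of 12 neuronal markers fell (sums 2804 to 3639 against 1293 to 1953 CPM) and 5 of 10 microglial markers rose (1209 to 1989 against 2714 to 4299 CPM), and their part was not tested. Tazemetostat alone or beside Tat changed 0 of 9 genes by limma, beside 0 genes called of all tested (576 and 851 with an unadjusted p under 0.05, among them 1 and 0 of the 9). Senicapoc (1 µM) alone, beside Tat and beside Tat-Cocaine changed 0 of 9 by limma, beside 0, 0.409 and 0.0441% of all genes (1378, 2909 and 2466 with an unadjusted p under 0.05). Of the 9, 0, 3 and 1 had an unadjusted p under 0.05. Beside Tat these were Hk1 (0.28 ± 0.10, FDR = 0.166), Pfkp (0.53 ± 0.19, FDR = 0.156) and Pgk1 (0.35 ± 0.17, FDR = 0.257), and 8 of 9 log2 fold changes were above 0. Beside Tat-Cocaine it was Pfkp, at 79.9, 79.6 and 96.3 CPM, all below Tat-Cocaine (-0.60 ± 0.19, FDR = 0.177).

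The difference between the effect of 4OI with Tat and its effect alone was called for 0 of the 9 genes by limma, beside 0.497% of all genes tested, and 0 of 9 had an unadjusted p under 0.05 (1896 of all genes). For Tat-Cocaine in place of Tat the count was also 0 of 9, beside 0.113% (1428 of all genes with an unadjusted p under 0.05). The interval for Pfkp with Tat was -0.03 to 1.07 around 0.52 and that for Hk2 -1.26 to 0.58 around -0.34, and both intervals are wide beside the effects themselves.

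Among 24 other glycolysis and lactate transport genes tested, Tat raised 3 and lowered 7, and 14 did not pass (beside 14.6% higher and 6.7% lower over all genes tested). Hk3, a hexokinase of myeloid cells, rose from 4.28 ± 1.94 to 30.7 ± 10.7 CPM (SD, n = 3, log2 fold change 2.74 ± 0.43, FDR = 1.56e-05), and Slc16a1 (MCT1), a transporter of lactate and pyruvate, from 204 ± 39.4 to 730.4 ± 73.8 CPM (1.85 ± 0.24, FDR = 7.89e-07). The third, Pfkfb1, stayed under 1 CPM (0.50 ± 0.18, FDR = 0.0442), a call lost without Tat replicate 1 or 2 or Control replicate 1 or 2 (FDR 0.0788 to 0.19). The largest falls were those of Aldoc, the aldolase of astrocytes, from 1025 ± 107 to 495 ± 96.1 CPM (-1.06 ± 0.23, FDR = 0.000831), Pgam2 (-0.80 ± 0.14, FDR = 0.000101) and Pfkm, the muscle-type phosphofructokinase (-0.59 ± 0.17, FDR = 0.0131). The call of Pfkm was lost without Tat replicate 2 (FDR = 0.0992) or Control replicate 1 (0.0755). Astrocyte markers summed to 9564 to 11753 CPM in Control and 6610.0 to 8966 in Tat, and 3 of 10 were lower. The median over the 24 genes was -0.20 with Tat, beside 0.01 over all genes tested.

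4OI alone changed 0 of the 24 by limma (2082 of all genes had an unadjusted p under 0.05, and 3.15% were called). Tat-4OI differed from Tat in 5 of the 24, with 4 higher and 1 lower, beside 15.6% of all genes tested (6.1% higher). Pgam2 was at 6.59 ± 0.909 CPM in Tat and 11.5 ± 0.933 CPM in Tat-4OI (0.77 ± 0.14, FDR = 0.00032). Eno1, enolase, was at 753 ± 16.96 and 1057 ± 197 CPM (0.47 ± 0.14, FDR = 0.0166), a call lost on leaving out any 1 of 4 libraries, Tat replicates 1 and 2 and Tat-4OI replicates 1 and 3 (FDR 0.052 to 0.127). Pklr was at 3.64 ± 0.687 and 6.67 ± 0.32 CPM (0.81 ± 0.28, FDR = 0.0442), lost without Tat replicates 1 or 2 or any Tat-4OI library (FDR 0.0637 to 0.221). Hk3 was the 1 gene that fell, from 30.7 ± 10.7 to 12.9 ± 5.32 CPM (-1.23 ± 0.43, FDR = 0.0469), lost without Tat replicate 1 or 2 or Tat-4OI replicate 1 or 3 (FDR 0.0595 to 0.254) and under 5 of 10 other settings (FDR up to 0.133). In the same comparison the 10 microglial markers summed to 1613 to 2869 CPM in Tat and 711 to 1551 CPM in Tat-4OI, with a median log2 fold change of -0.99 and 2 called lower, and their part in the Hk3 values was not tested.

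The pentose phosphate pathway branches from glucose 6-phosphate. With 4OI against Control, its gene Taldo1 had a larger log2 fold change (2.04) than Slc2a1 (0.86), and Tkt (0.93) was close to Slc2a1. Of 6 genes tested (7 were listed and 6 were in the table), 4OI raised 2 and lowered 0, beside 3.15% of all genes called (2.47% higher). The median log2 fold change of the 6 was 0.15. Taldo1 (transaldolase) rose from 139.9 ± 22.6 to 572 ± 53.4 CPM (2.04 ± 0.16, FDR = 2.49e-11), and Tkt (transketolase) from 302 ± 39.9 to 574 ± 77.6 CPM (0.93 ± 0.14, FDR = 2.04e-05). Both genes were higher in Tat-4OI than in Tat, by 1.77 ± 0.16 (FDR = 9.41e-10) and 0.81 ± 0.14 (FDR = 9.15e-05), and H6pd, an enzyme of the endoplasmic reticulum, fell (-0.89 ± 0.20, FDR = 0.00267), beside 15.6% of all genes called. Tat alone raised H6pd to 38.2 ± 4.33 CPM (1.01 ± 0.20, FDR = 0.000421) and Rpia to 26.7 ± 5.24 CPM (0.91 ± 0.21, FDR = 0.00158), 2 of the 6, and lowered 0, beside 14.6% of all genes higher and 6.7% lower. Tat-Cocaine-4OI exceeded Tat-Cocaine in 2 of the 6 and was below it in 0, beside 7.36% of all genes called (4.07% higher).

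Of 13 genes for the entry of pyruvate into mitochondria, Tat raised 0 and lowered 4, beside 14.6% of all genes tested higher and 6.7% lower. Mpc2, a subunit of the pyruvate carrier, fell from 110.5 ± 13.3 to 80.4 ± 11.1 CPM (-0.46 ± 0.11, FDR = 0.00244), Pdk2, a kinase of pyruvate dehydrogenase, by 0.40 ± 0.13 (FDR = 0.027) and Pdhb, a subunit of that enzyme, by 0.39 ± 0.11 (FDR = 0.0104) on the log2 scale. The call of Mpc2 was lost with the groups fitted alone (FDR = 0.0902). The call of Pdk2 was lost without Tat replicate 1 or 2 (FDR = 0.0908 and 0.105) or Control replicate 1 or 3 (0.142 and 0.0509), and that of Pdhb without Tat replicate 2 (0.126) or Control replicate 1 (0.0795). Pdk4, the kinase that holds pyruvate dehydrogenase inactive in fasting, was the 1 gene of the 13 raised by 4OI (beside 2.47% of all genes against Control and 6.1% against Tat), from 7.67 ± 0.242 to 13.9 ± 1.11 CPM against Control (0.81 ± 0.23, FDR = 0.0374) and from 5.19 ± 0.71 to 14.96 ± 0.975 CPM against Tat (1.45 ± 0.23, FDR = 3.19e-05). The former call was lost on leaving out any 1 of its 6 libraries (FDR 0.0649 to 0.176); the latter was kept without each of its own.

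Of 14 genes of the hypoxia list, Tat raised 3 and lowered 2, beside 14.6% of all genes tested higher and 6.7% lower. Epas1 and Hif1a, which encode the oxygen-regulated factors themselves, rose from 256 ± 32.3 to 575 ± 119 CPM (1.15 ± 0.20, FDR = 5.79e-05) and from 98.7 ± 2.65 to 162 ± 10.1 CPM (0.71 ± 0.07, FDR = 7.56e-09), and Ndrg1 from 45.7 ± 7.02 to 93.3 ± 31.8 CPM (0.98 ± 0.34, FDR = 0.0383). Mxi1 fell from 160.1 ± 21.2 to 108 ± 17.2 CPM (-0.57 ± 0.16, FDR = 0.00768) and Higd1a from 76.04 ± 22.1 to 51.5 ± 7.61 CPM (-0.52 ± 0.18, FDR = 0.0393). Ndrg1 was lost on leaving out any 1 of 5 libraries (Tat replicates 2 and 3 and the Control replicates, FDR 0.0526 to 0.236), Higd1a any 1 of 4 (Tat replicates 1 and 2, Control replicates 1 and 2, 0.106 to 0.243), and Mxi1 without Tat replicate 2 (0.0596) or Control replicate 1 (0.0568). 4OI raised Epas1 alone of the 14, to 439 ± 25.5 CPM (0.78 ± 0.20, FDR = 0.02), lost without Control replicate 1 or 4OI replicate 1 or 3 (FDR 0.0525 to 0.115), and Tat-4OI exceeded Tat in Mxi1 alone (0.52 ± 0.16, FDR = 0.0225), lost without Tat replicate 1 or 2 or Tat-4OI replicate 1 or 3 (FDR 0.0819 to 0.158).

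**Figure D4:**
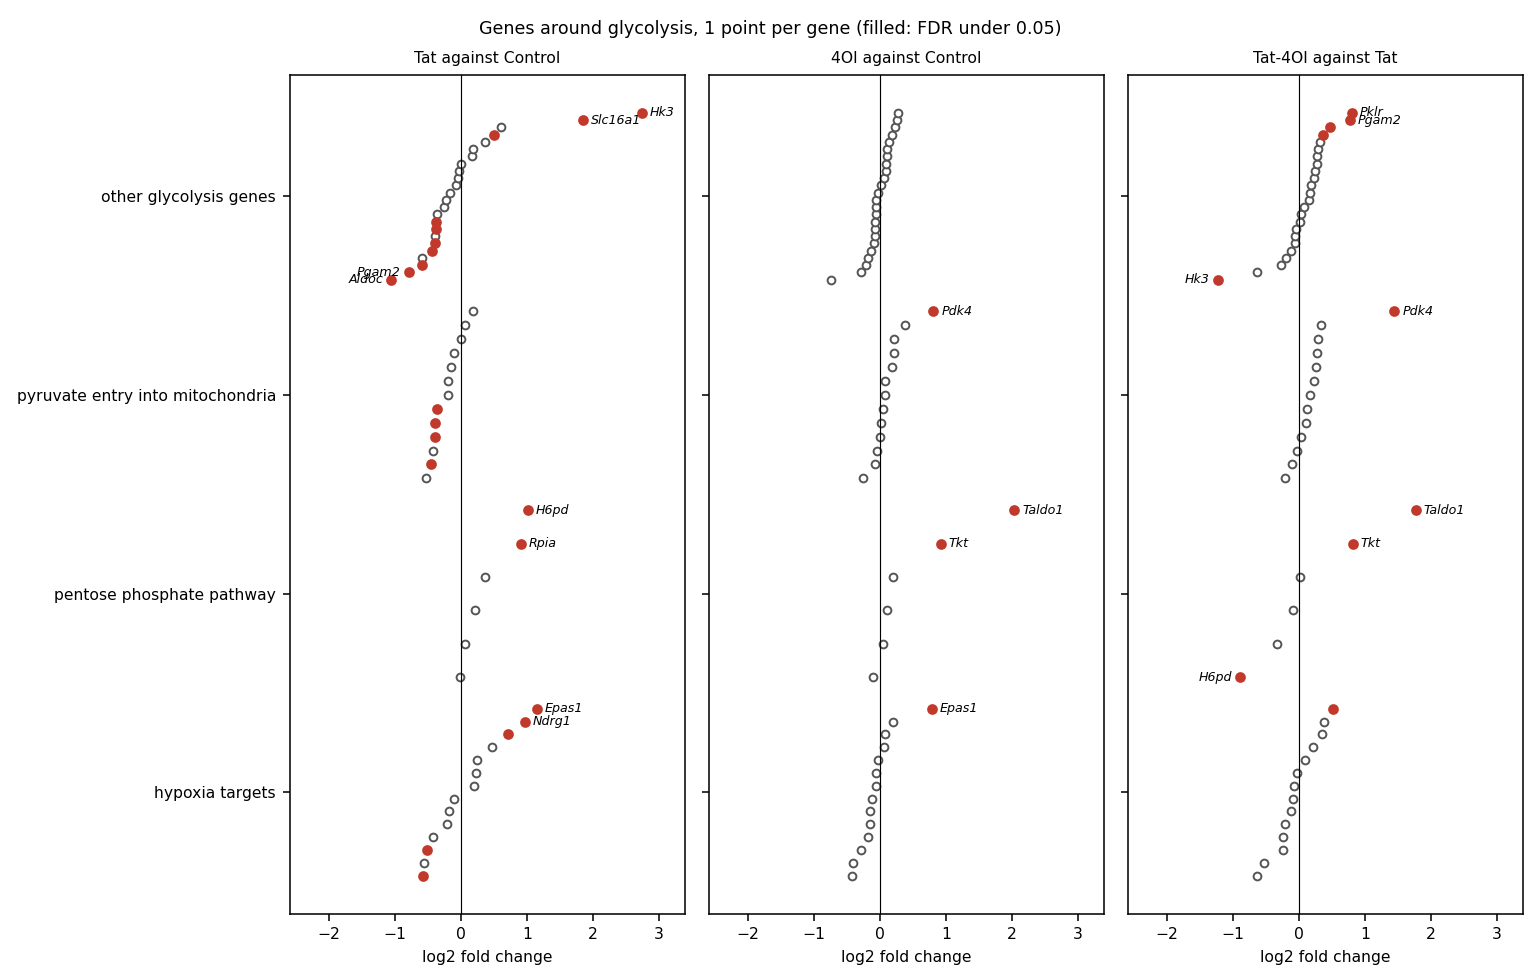
Log2 fold changes (limma) of genes around glycolysis, 1 point per tested gene, by list and in 3 comparisons; filled points have an FDR under 0.05 and the called genes with the larger fold changes are named. Taldo1 and Tkt stand out to the right with 4OI, and Hk3 and Slc16a1 with Tat.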

How the data were processed

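PolyA RNA of 48 cultures was sequenced with a strand-directional kit (NovaSeq, paired ends). According to the methods of the study, reads were aligned to Rnor_6.0 with STAR and reads with a single position were counted with featureCounts, whereas the submitters' processing notes list mRatBN7.2 and hg38 as builds and name FastQC, Trim Galore 0.4.5, STAR 2.7.2, SAMtools 1.5 and Subread 1.5.3. The authors deposited 1 table of 30211 genes with CPM after TMM scaling for each library, a signal that is not a raw count (columns summed to 930399 to 1046890, and 85.0 to 87.3% of values were whole multiples of 1 read within a tolerance of 0.02). The table also holds 16 group averages and the fold changes and tests of 36 comparisons by the authors, which were not used. The labels gave each library its group and its replicate number.

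The log2(CPM + 0.5) of each gene was tested with limma 3.58.1 (R 4.3.3, lmFit and eBayes with a variance trend over expression) in 1 fit to all 48 libraries without a replicate term, over the 15890 genes with at least 0.5 CPM in 3 or more libraries. P-values were adjusted by the Benjamini-Hochberg method over all of these genes, with a threshold of 0.05, because the table holds CPM and a count model does not suit it. Fold changes on this scale understate those of low genes. The code was tested on simulated data. Other settings were pseudocounts of 0.1 and 1, a minimum of 2 CPM and no minimum, median ratio scaling, quantile normalization, no variance trend, fits to the 21 libraries of the 7 groups from Control to Tat-Cocaine-4OI or to the compared groups alone, a replicate block, and each library left out. Replicate numbers were taken to pair the libraries where all 3 same-numbered pairs deviated together from their group means with a correlation over 0.1, which was so for Tat-Cocaine against Control (0.20 to 0.54), 4OI against Control (0.28 to 0.47), Tat-Amlexanox against Tat (0.27 to 0.68), and Tazemetostat (0.45 to 0.81) and Senicapoc (0.14 to 0.68) against Control. All 9 glycolysis genes are described. Of each other list, the 3 largest rises and the 3 largest falls among called genes (fewer where fewer were called) are named for Tat against Control, 4OI against Control and Tat-4OI against Tat, and the 3 genes most correlated with each of the 9 (Pearson, log2 scale, 48 libraries) are named. Some genes that these rules would name or list are not reported here. The genes and lists were chosen with earlier results of these data known. Promoters were searched on both strands with Python 3.11.15.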

Additional observations from a re-analysis of the deposited data

How the results depend on the processing

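Slc2a1 was called higher with 4OI in all 3 settings, and Pfkfb3 with Tat and Tat-Cocaine, under all 10 other settings and with each library left out in turn. The count of the 9 genes called moved from 3 to 5 with a replicate block in Tat against Control (Hk2, FDR = 0.00119, and Pfkp, 0.0356, added) and from 0 to 1 in Cocaine against Control (Hk1, 0.0478). By the check above, made over all genes tested together, replicate numbers did not pair the libraries in these comparisons. That check does not speak for single genes. For Hk2, replicate 2 was the highest library of every group, and the microglial marker sum was highest in replicate 2 in every group but Tat-Cocaine. The block also added Hk2 in Tat-4OI against Tat (FDR = 0.00506) and changed no other call of the 9. Fitted alone, the compared groups gave 1 for Tat, Tat-Cocaine, Tat-4OI against Tat and Tat-Cocaine-4OI, and 0 for Tat-4OI against 4OI, Amlexanox and Tat-Cocaine-Amlexanox. The 21 libraries gave 1, 1 and 0 for Tat-4OI against Tat, Tat-Cocaine-4OI and Tat-4OI against 4OI, and no minimum level gave 1 for Tat-Cocaine-Tazemetostat. Counts over all genes under these settings are not reported here. With 1 library left out the counts were 3 to 4 for Tat, 0 to 5 for Cocaine, 2 to 5 for Tat-Cocaine, 1 for 4OI, 1 to 3 for Tat-4OI against Tat, 1 to 2 for Tat-Cocaine-4OI, Tat-4OI against 4OI, Amlexanox and Tat-Cocaine-Tazemetostat, and 0 to 1 for Tat-Cocaine-Amlexanox. Calls over all genes in these fits also moved, from 1830 to 3857 for Tat, 0 to 1724 for Cocaine and 1586 to 2055 for Tat-Cocaine. They were 219 to 500 for 4OI, 1027 to 2958 for Tat-4OI against Tat and 592 to 1097 for Tat-Cocaine-4OI. Tat-4OI against 4OI had 232 to 809 and Amlexanox 160 to 3003. Tat-Cocaine-Tazemetostat had 174 to 5865 and Tat-Cocaine-Amlexanox 5 to 1317. The 5 of Tat-Cocaine came without Control replicate 3 and added Aldoa (FDR = 0.0219), Pgk1 (0.0308) and Ldha (0.0484). Of the genes named from other lists, calls were also lost under some of the 10 other settings for Pdk4 with 4OI (3 settings, FDR up to 0.25), Ndrg1 (3, 0.133), Higd1a (3, 0.209), Pfkfb1 (5 of 9, 0.2), Pdk2 (2, 0.0663), Pdhb (2, 0.0994) and Mxi1 (1, 0.0643) with Tat, Epas1 with 4OI (1, 0.0652), and Eno1 (2, 0.0976), Pklr (2, 0.11) and Mxi1 (2, 0.0955) in Tat-4OI against Tat. Why calls were lost under these settings was not tested.

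Signs turned only for uncalled genes. Quantile normalization gave -0.0114 for Pfkfb3, -0.0349 for Pgk1 and -0.0272 for Ldha in 4OI against Control, -0.0823 for Ldha in Tat-Cocaine-4OI against Tat-Cocaine and 0.0164 for Aldoa in the difference of the 4OI effect with and without Tat. Median ratio scaling gave 0.00587 for Pfkfb3 with Cocaine, and 0.00756 for Aldoa and 0.00800 for Ldha in the difference with and without Tat-Cocaine. With 1 library left out, log2 differences ran as follows. For the difference of the 4OI effect with and without Tat, Aldoa -0.134 to 0.116, Hk2 -0.59 to 0.0122, Ldha -0.122 to 0.55, Pkm -0.146 to 0.147, Slc2a1 -0.225 to 0.0606. For the difference of the 4OI effect with and without Tat-Cocaine, Aldoa -0.0951 to 0.155, Hk2 -0.52 to 0.242, Ldha -0.27 to 0.401, Pfkfb3 -0.0316 to 0.201. For Tat against Control, Aldoa -0.225 to 0.0253, Ldha -0.464 to 0.208, Pgk1 -0.349 to 0.0285. For Cocaine against Control, Hk2 -0.542 to 0.0946, Pfkfb3 -0.119 to 0.14. For 4OI against Control, Ldha -0.341 to 0.331, Pfkfb3 -0.0324 to 0.196, Pfkp -0.295 to 0.0214, Pgk1 -0.204 to 0.174. For Tat-4OI against 4OI, Ldha -0.0675 to 0.236, Pfkp -0.0562 to 0.126. For Tat-Cocaine against Control, Ldha -0.659 to 0.0127, Pfkp -0.264 to 0.0525. For Tat-Cocaine-4OI against Tat-Cocaine, Ldha -0.0449 to 0.17. The log2 ratio of Hk2 to Hk1 ran from 1.06 to 1.57 (Tat), -0.943 to -0.395 (4OI) and -1.41 to -0.917 (Tat-4OI against Tat), and that of Ldha to Ldhb from -0.0653 (without Control replicate 3) to 0.635, -0.573 to 0.127 and -0.208 to 0.0691.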
